A study of Homo sapiens with 21 samples.

Results

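The genes described here are a set of 10 AP-1 and immediate early genes. The set holds the AP-1 subunit genes FOS, FOSB, FOSL1, FOSL2, JUN, JUNB and JUND together with EGR1, IER2 and IER3. They were taken by symbol from the deposited table of gene counts. All 10 were among its 16553 genes, and all 10 passed the filter on low counts that left 15969 genes for testing.

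The cells were AU565, a wild-type human breast cancer line with an amplified ERBB2 gene, and the antibody was trastuzumab, which binds the ERBB2 product HER2. The 21 libraries of total RNA form 7 groups of 3. Untreated monolayers (2D) were compared with acutely exposed monolayers (20 µg/ml for 24 h) and with primed monolayers, which had the same exposure and then 96 h more. Untreated aggregates (3D) were grown for 96 h in a liquid overlay with 5% matrigel, and primed aggregates were grown for 96 h from cells exposed beforehand as a monolayer to 20 µg/ml for 24 h. Treated aggregates received 50 µg/ml for 24 h after the 96 h, and primed and treated aggregates had both exposures. Treated aggregates were therefore 24 h older than untreated ones, and their dose differed from that of the monolayers. Untreated and acutely exposed monolayers had no 96 h incubation, and no monolayers had matrigel. All cells are of 1 line. Nothing in the labels ties replicates to separate cultures, so p-values measure the spread between these samples, which may be technical.

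Immediate early genes are transcribed within minutes of a growth factor or stress signal, from factors already present in the cell. Growth factor receptors such as HER2 signal through RAS and the ERK kinases to ternary complex factors and SRF at the FOS and EGR1 promoters, whereas JUN is driven by the JNK kinases and by AP-1 itself. FOS proteins bind DNA as dimers with JUN proteins, JUN proteins can also pair with each other, and EGR1 is a zinc finger transcription factor. FOSL2 and JUND proteins are longer-lived than FOS, whose messenger RNA and protein are short-lived. Transcript counts show neither protein level nor phosphorylation.

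Promoter sequences are shown for 3 genes, EGR1 and FOS, whose monolayer and aggregate libraries did not overlap, and FOSB, which carries the same CRE core as FOS and stayed between 0.924 and 3.26 CPM. They come from the RefSeq promoter table (GRCh38.p14), which held 8 of the 10 genes. They run from 250 bases before the RefSeq start, on the plus strand, and end where the GENCODE v29 gene model begins, which cuts 54 bases from FOS and 1 from FOSB. Capitals mark matches to the motifs named next.
EGR1, chr5:138465229-138465478: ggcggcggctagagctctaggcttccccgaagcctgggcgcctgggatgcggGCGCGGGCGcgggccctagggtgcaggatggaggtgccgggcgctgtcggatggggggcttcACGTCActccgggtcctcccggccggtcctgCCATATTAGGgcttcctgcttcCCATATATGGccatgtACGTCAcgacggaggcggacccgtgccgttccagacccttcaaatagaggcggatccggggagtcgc
FOS, chr14:75278578-75278773: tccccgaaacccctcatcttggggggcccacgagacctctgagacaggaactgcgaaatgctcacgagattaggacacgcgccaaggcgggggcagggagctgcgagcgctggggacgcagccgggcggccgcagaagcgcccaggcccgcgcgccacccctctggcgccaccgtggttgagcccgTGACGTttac
FOSB, chr19:45467746-45467994: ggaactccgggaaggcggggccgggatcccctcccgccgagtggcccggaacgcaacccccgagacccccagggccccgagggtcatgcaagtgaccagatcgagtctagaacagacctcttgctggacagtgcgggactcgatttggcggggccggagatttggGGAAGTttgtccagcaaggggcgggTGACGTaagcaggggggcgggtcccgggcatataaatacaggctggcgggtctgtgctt

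In the EGR1 window, capitals mark an EGR site (GCGNGGGCG) at -198 to -190, CArG boxes, the element that SRF binds, at -105 to -96 and -83 to -74, and the CRE core TGACGT or its complement at -136 to -131 and -67 to -62, counted from the RefSeq start. FOS has the CRE core at -64 to -59 and FOSB at -60 to -55, and FOSB also has the ETS core GGAAGT at -85 to -80. Each motif was searched on both strands in the 250 bases before the start. The CArG box was in 1 of the 8 genes' windows and in 1.14% of 27305 promoters, and the EGR site in 1 of 8 and 8.25%. TGACGT was in 5 of 8 and 7.42%, the CRE-like site TGANNTCA in 2 of 8 and 10.4%, the AP-1 site TGANTCA in 0 of 8 and 6.6%, and the ETS core GGAAGT in 3 of 8 and 19.9%. The full CRE TGACGTCA fits both TGACGT and TGANNTCA. TGACGT was added after these sequences had been read, so its share among the 8 is a description. Among the 12556 promoters of genes in the count table the share with TGACGT was 9.82%. There it was 1.02% for the CArG box, 12.9% for the EGR site and 7.91% for the CRE-like site. For the AP-1 site it was 4.38% and for the ETS core 22.6%. The windows are short, so a site further upstream, at FOS or any other gene, would be missed. A match is not a measured binding site.

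Total counts ran from 15005070 to 26921113 per library. The line's luminal epithelial markers were all measured (12 of 12, summed to 12710 to 19780 CPM), whereas 6 of 10 immune markers, PTPRC and CD3E among them, were not among the table's genes and the other 4 summed to 28.3 to 73.95 CPM. Transcripts of other tissues split the libraries. The melanocyte gene TYRP1 was at 5.73 to 33.5 CPM in 12 libraries (monolayers untreated or acutely exposed, aggregates untreated or primed). The kidney gene UMOD was at 0.825 to 22.9 CPM in the other 9 (primed monolayers and both kinds of treated aggregates). MYH7, a cardiac myosin gene, reached 20.6 to 90.7 CPM in 6 of the 12, namely untreated monolayer replicates 1 and 2, acutely exposed replicates 2 and 3, and untreated aggregate replicates 1 and 2. Comparisons between the 12 and the 9 cannot be told apart from that split. For the 10 genes, results are also given without the 6 libraries where this ends a call. That leaves 1 library in each of those 3 groups, assumed to vary like the others. The supporting lists of other genes were not recounted without the 6. The share of counts from mitochondrial rRNA was 0.793 to 1.14% in monolayers. Untreated aggregates had 2.5 to 2.75% and primed ones 2.62 to 2.77%. Treated aggregates had 1.52 to 1.71%, and those with both exposures had 2.13 to 2.36%. The part of this share, and of the marker sums given beside the results, was not tested.

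Levels are in CPM, counts scaled to library size with TMM factors. The marker sums and the values of TYRP1, UMOD and MYH7 are instead CPM by plain library size, without TMM factors. Means have their SD (n = 3), and single values are listed by replicate 1, 2 and 3. FOS (chr14:75278774-75282230, GRCh38, plus strand) encodes the founding, short-lived partner of JUN. Its level was 2.41, 3.74 and 2.68 CPM in untreated monolayers, 3.52, 4.41 and 3.87 in acutely exposed ones and 5.27, 6.64 and 4.68 in primed ones. In untreated aggregates it was 51.9, 49.9 and 41.3 CPM, and in primed aggregates 24.3, 28.8 and 27.3. In treated aggregates it was 18.0, 18.7 and 16.1 CPM, and in primed and treated ones 21.7, 20.4 and 21.02. All 12 aggregate libraries lay above all 9 monolayer libraries. Going down from untreated aggregates, each group lay wholly below the one before, except that acutely exposed and untreated monolayers overlapped. The mean of the highest group was 16.2 times that of the lowest.

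**Figure D1:**
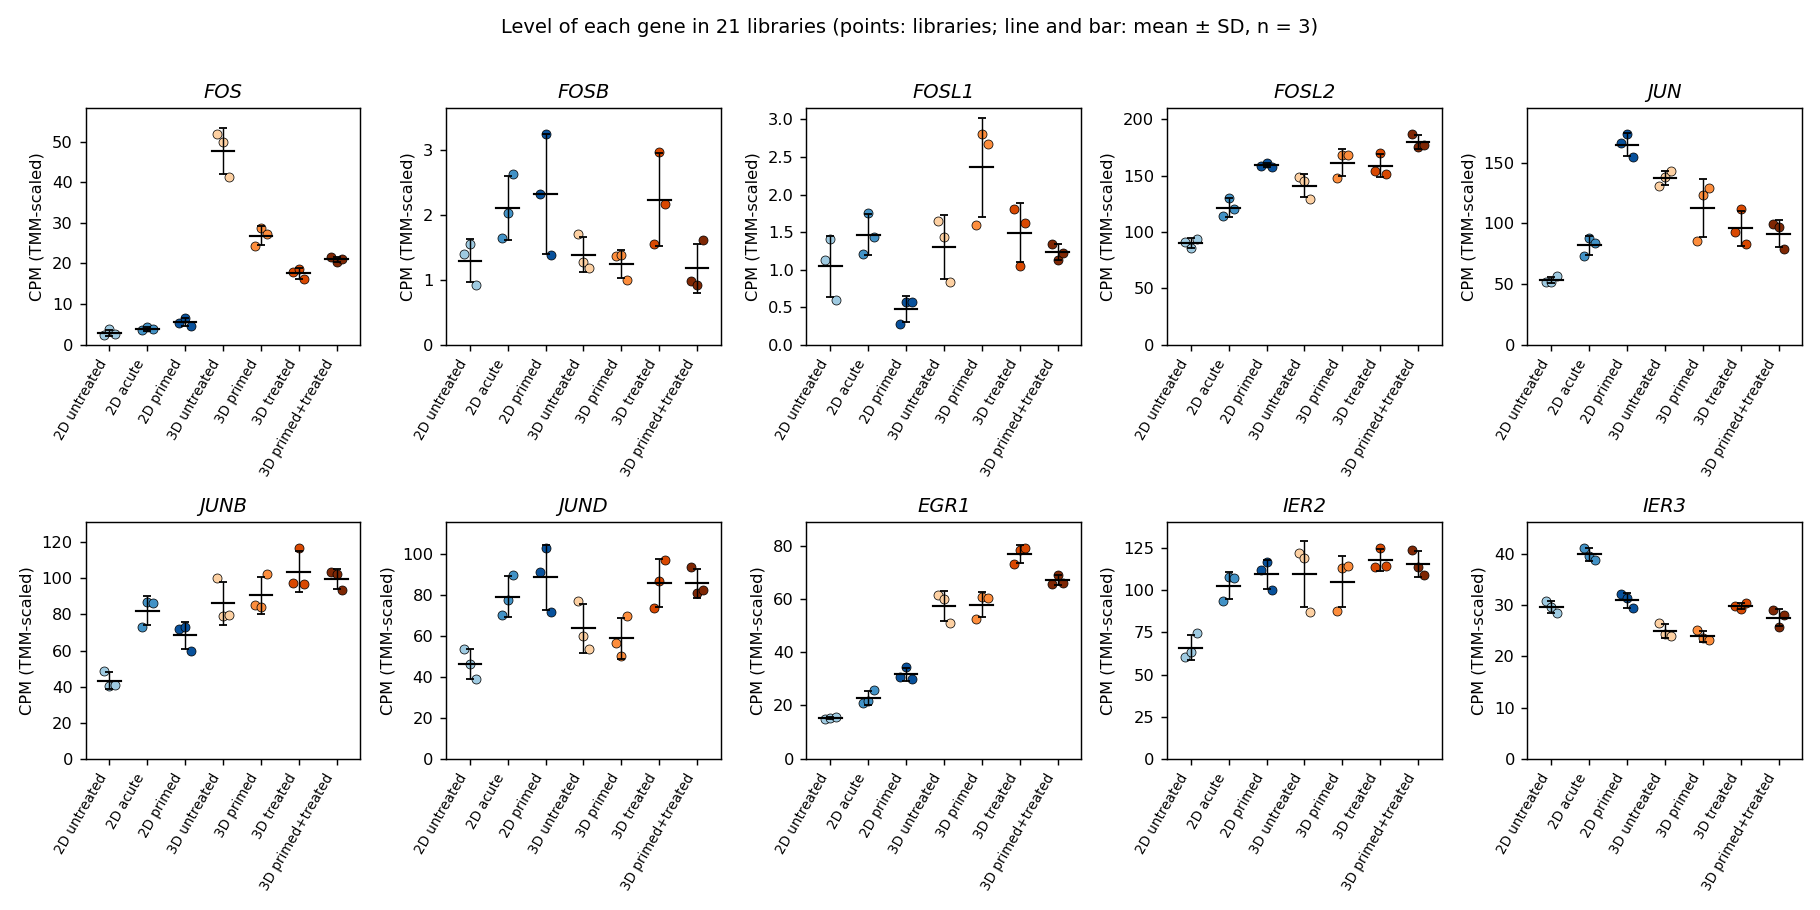
Level of each of the 10 genes (CPM, TMM-scaled, linear axis from 0) in the 7 groups, with 1 point per library and the mean ± SD of 3. FOS runs from 2.41 to 51.9 CPM and separates all aggregates from all monolayers, whereas the IER3 means stay between 24.0 and 39.9 CPM.

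The other FOS family genes moved less. FOSL2 (chr2:28392448-28417312, plus strand), which encodes the stable FRA2 protein, was at 91.4, 85.8 and 93.8 CPM in untreated monolayers, 114, 130 and 120 in acutely exposed ones and 158, 162 and 158 in primed ones. It was at 148, 145 and 130 CPM in untreated aggregates and highest, at 187, 175 and 177, in primed and treated ones. Untreated monolayers were the lowest group, and their libraries did not overlap with those of any other group. FOSL1 (chr11:65892049-65900573, minus strand), which encodes FRA1, was at 0.472 ± 0.172 CPM in primed monolayers and 2.36 ± 0.664 in primed aggregates. Those primed monolayer values rest on 4 to 9 counts per library. FOSB (chr19:45467995-45475179, plus strand) was between 0.924 and 3.26 CPM in all libraries, and each of its neighbouring groups overlapped.

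JUN family transcripts were lowest in untreated monolayers. JUN (chr1:58780788-58784327, minus strand), a gene of a single exon and the main transactivating subunit, was at 51.4, 51.9 and 56.3 CPM there, 73.5, 87.9 and 84.2 after acute exposure and 166, 174 and 155 in primed monolayers. It was at 131, 139 and 143 CPM in untreated aggregates and at 85.7, 123 and 130 in primed ones. In treated aggregates it was at 93.0, 112 and 83.3 CPM, and in primed and treated ones at 99.3, 97.1 and 78.7. Primed monolayers and untreated aggregates were the highest groups, without overlap with each other or with the groups below them. JUNB (chr19:12791496-12793315, plus strand), which can restrain JUN, was at 48.7, 40.2 and 40.7 CPM in untreated monolayers and at 59.9 to 117 in all other libraries. JUND (chr19:18279760-18281622, minus strand), commonly the constitutive member, was at 46.0 ± 7.26 CPM in untreated monolayers and 88.5 ± 15.8 in primed monolayers, and all neighbouring groups in its order overlapped.

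EGR1 (chr5:138465490-138469315, plus strand) was ordered without overlap over the 3 monolayer groups. It was at 14.8, 15.3 and 15.8 CPM when untreated, 20.8, 21.8 and 25.9 after acute exposure and 30.8, 34.4 and 29.8 when primed. In untreated aggregates it was at 61.3, 59.9 and 51.0 CPM, in primed ones at 52.4, 60.7 and 60.4, in primed and treated ones at 65.7, 69.1 and 66.0 and in treated ones at 72.9, 78.2 and 79.2. Treated aggregates were the highest group, and the untreated and primed aggregates overlapped.

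IER2 (chr19:13150415-13154908, plus strand), a nuclear immediate early protein, was at 60.4, 63.2 and 74.5 CPM in untreated monolayers and at 87.1 to 125 in the other libraries. IER3 (chr6:30743199-30744554, minus strand), a stress-inducible regulator of apoptosis, was highest after acute exposure, at 41.3, 39.7 and 38.9 CPM, against 30.9, 29.8 and 28.6 in untreated monolayers. Its lowest group was the primed aggregates at 25.2, 23.6 and 23.1 CPM. The exons of both genes overlap antisense genes (756 bases for IER2 and 359 for IER3), and whether the counting used strand is not given in the sources used here, so reads of the partner cannot be told apart.

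Without antibody, aggregates had 15.9-fold more FOS, 3.74-fold more EGR1 and 2.58-fold more JUN than monolayers. JUNB, IER2, FOSL2 and JUND were also higher, and IER3 was lower. The aggregates had 96 h of incubation and 5% matrigel and the monolayers had neither. Growth form, that time and matrigel cannot be told apart here. In edgeR's quasi-likelihood test with Benjamini-Hochberg adjustment the log2 fold change of FOS was 3.99 (SE 0.129, adjusted p = 1.28e-23) and that of EGR1 was 1.90 (SE 0.0834, adjusted p = 4.74e-20). JUN differed by 1.37 (SE 0.144, adjusted p = 4.38e-07) and JUNB by 1.002 (SE 0.12, adjusted p = 8.03e-07). The log2 fold changes were 0.73 for IER2, 0.64 for FOSL2, 0.47 for JUND and -0.25 for IER3. In all, 7 of the 10 rose and 1 fell, where 64.1% of all tested genes passed, 32.9% higher and 31.1% lower. The median log2 fold change was 0.69 over the 10 genes and 0.01 over all tested genes. FOSB at 0.09 and FOSL1 at 0.31 did not pass (adjusted p = 0.822 and 0.421). JUND no longer passed without untreated monolayer replicate 2 (0.47, adjusted p = 0.0741) or 3 (0.36, 0.14) or untreated aggregate replicate 1 (0.31, 0.179). Without the 6 libraries with MYH7, JUND (0.47), IER2 (0.23) and IER3 (-0.24) did not pass (adjusted p = 0.273, 0.26 and 0.14), and FOS, FOSL2, JUN, JUNB and EGR1 did. In the same libraries the 9 melanocyte markers summed to 60.5 to 130.1 CPM in untreated monolayers and 24.6 to 34.0 in untreated aggregates. The 4 measured immune markers summed to 37.7 to 42.3 and 52.05 to 55.9 CPM, and the 4 measured endothelial markers (of 6) to 9.72 to 10.8 and 14.5 to 18.4.

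**Figure D2:**
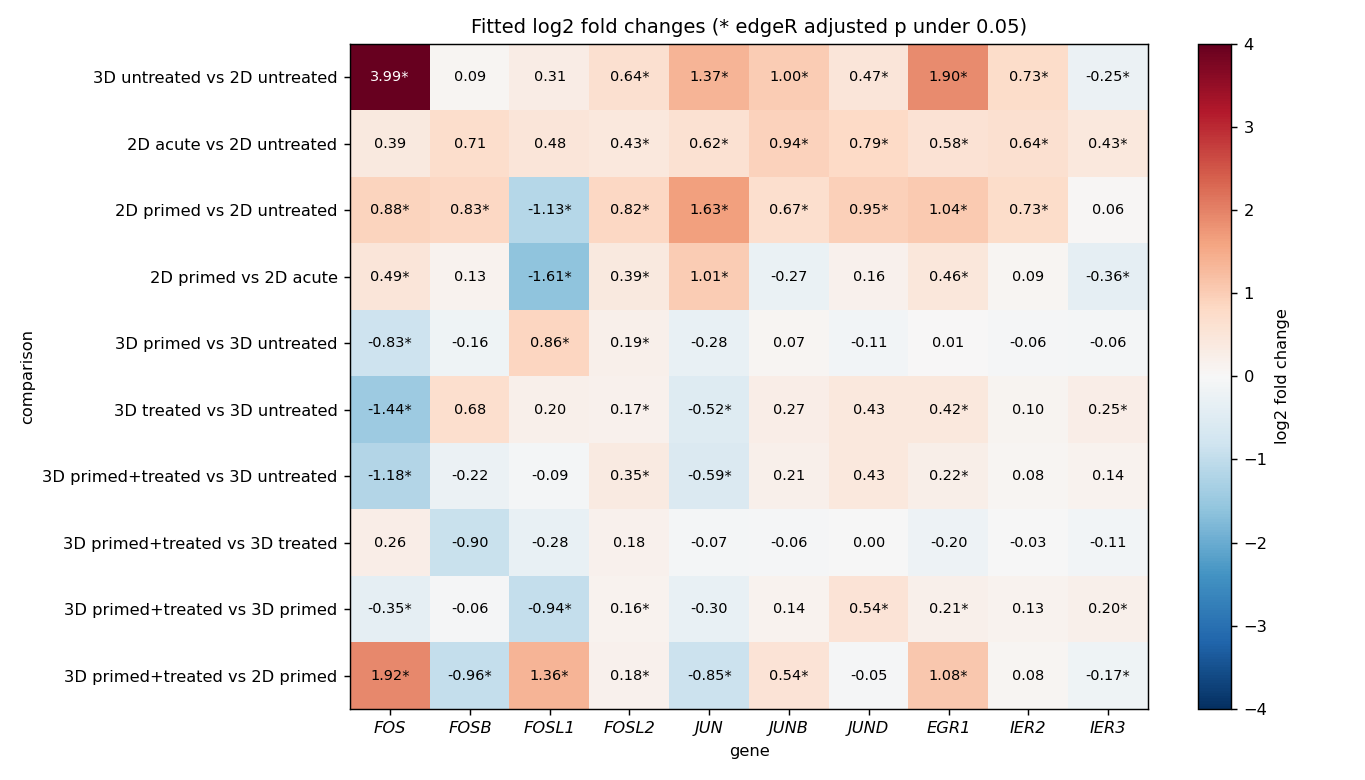
Fitted log2 fold changes of the 10 genes (columns) in the 10 pairwise comparisons (rows), red for higher and blue for lower in the first group named, with an asterisk where the edgeR adjusted p was under 0.05. FOS has the largest value, 3.99 in untreated aggregates against untreated monolayers. It is lower with every antibody regimen in aggregates, where both treated groups also lie across the split by tissue transcripts from untreated ones.

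In monolayers, 24 h of antibody was followed by a small rise of most of these genes. JUNB rose 0.94 on the log2 scale (SE 0.119, adjusted p = 1.55e-05), JUND 0.79 (SE 0.178, adjusted p = 0.00521), IER2 0.64 (SE 0.127, adjusted p = 0.00175) and JUN 0.62 (SE 0.145, adjusted p = 0.00602). EGR1 rose by 0.58, FOSL2 by 0.43 and IER3 by 0.43. FOS at 0.39 and FOSB at 0.71 did not pass in edgeR (adjusted p = 0.0989 and 0.0977), and neither did FOSL1 at 0.48. So 7 of 10 rose and none fell, where 20.2% of all tested genes passed, 11.3% higher and 8.91% lower, with medians of 0.60 for the 10 and -0.02 for all. FOS passed without untreated monolayer replicate 2 (0.62, adjusted p = 0.0207). Without the 6 libraries with MYH7, only JUNB and IER3 of the 10 still passed. The log2 fold changes of the 5 that did not were then 0.28 for FOSL2, 0.39 for JUN, 0.85 for JUND, 0.40 for EGR1 and 0.33 for IER2 (adjusted p from 0.116 to 0.615). The 4 immune markers summed to 44.97 to 50.6 CPM after exposure and the 4 endothelial markers to 15.7 to 16.9, above the untreated monolayers in both.

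Primed monolayers, 96 h after the exposure, had 3.10-fold more JUN than untreated ones. Its log2 fold change was 1.63 (SE 0.144, adjusted p = 5.61e-08), and EGR1 rose by 1.04 (SE 0.0882, adjusted p = 1.89e-12). JUND rose by 0.95, FOS by 0.88, FOSB by 0.83, FOSL2 by 0.82, IER2 by 0.73 and JUNB by 0.67, while FOSL1 fell by 1.13. So 8 of 10 rose and 1 fell, where 65.3% of all tested genes passed, 33.7% higher and 31.6% lower. IER3 did not pass (0.06, adjusted p = 0.453). FOSL1 did not pass without untreated replicate 2 (-0.82, adjusted p = 0.121) or primed replicate 1 (-0.87, 0.0872), nor without the libraries with MYH7 (-0.33, 0.657). FOSB did not pass without untreated replicate 3 (0.64, 0.0931) or primed replicate 2 (0.50, 0.209). This comparison runs across the split by tissue transcripts. Untreated monolayers also lacked the 96 h incubation, so priming and that time in culture cannot be told apart. In the same libraries the 9 kidney tubule markers summed to 1.94 to 2.95 CPM in untreated and 11.6 to 31.9 CPM in primed monolayers, with UMOD, CDH16 and UGT2B7 at 0 in the untreated ones. The endothelial markers went from 9.72 to 10.8 up to 58.55 to 65.6 CPM. The melanocyte markers went from 60.5 to 130.1 down to 11.5 to 14.6 CPM, with TYR, GPR143 and PAX3 at 0 in primed monolayers, and 9 measured fibroblast markers (of 10) from 28.6 to 57.2 down to 8.66 to 10.8.

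Against acutely exposed monolayers, primed monolayers differed most in JUN and FOSL1. JUN was higher by 1.01 (SE 0.14, adjusted p = 1.16e-05) and FOSL1 lower, at -1.61 (SE 0.388, adjusted p = 0.00052). FOSL1 had only 4 to 9 counts per library in primed monolayers, against 22 to 37 in acutely exposed ones. FOS (0.49), EGR1 (0.46) and FOSL2 (0.39) were higher and IER3 (-0.36) lower. The count was 4 higher and 2 lower of 10, where 62.4% of all tested genes passed, 32.3% higher and 30.1% lower. JUNB, at -0.27 with an adjusted p of 0.0578, passed in DESeq2 (adjusted p = 0.0121) and limma voom (0.0231), and without acutely exposed replicate 1 (-0.34, 0.0265) or primed replicate 2 (-0.32, 0.0491). FOS did not pass without primed replicate 2 (0.33, adjusted p = 0.11). The 2 groups lie on either side of the split by tissue transcripts, so the time after exposure and that split cannot be told apart.

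In aggregates FOS fell with every antibody regimen. Against untreated aggregates its log2 fold change was -0.83 in primed (SE 0.0995, adjusted p = 1.88e-07), -1.44 in treated (SE 0.102, adjusted p = 3.43e-13) and -1.18 in primed and treated aggregates (SE 0.0997, adjusted p = 2.49e-11). These 3 comparisons share the untreated aggregates. The highest treated value, 18.7 CPM, lay below the lowest untreated one, 41.3, and all 3 calls held under each alternative run. The treated groups, primed or not, lie across the split by tissue transcripts from untreated aggregates and were 24 h older. Exposure, split and age cannot be told apart in those comparisons, and no alternative run separates them. FOS in every aggregate group still lay above primed monolayers, the highest of the monolayers.

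Priming before aggregation changed few of the other genes. FOSL1 rose by 0.86 (SE 0.304, adjusted p = 0.041) and FOSL2 by 0.19 (SE 0.061, adjusted p = 0.0198), though their libraries overlapped between the groups. So 2 rose and 1 fell of 10, where 21.2% of all tested genes passed, 11.5% higher and 9.66% lower. JUN was at -0.28 (95% interval -0.58 to 0.01) and EGR1 at 0.01 (-0.14 to 0.16). Both FOSL1 and FOSL2 fell short without primed replicate 2 (0.72 and 0.16, adjusted p = 0.168 and 0.107), primed replicate 3 (0.75 and 0.16, 0.146 and 0.118) or untreated replicate 3 (0.62 and 0.13, 0.197 and 0.147). FOSL1 also fell short without untreated replicate 2 (0.93, 0.0732), in DESeq2 (0.86, 0.0535) and in a fit of the compared groups alone (0.86, 0.0757), as did FOSL2 in the last (0.19, 0.0775). Both groups belong to the same 12 libraries, but their marker sums differed too. The melanocyte markers summed to 63.8 to 103.9 CPM in primed and 24.6 to 34.0 in untreated aggregates, the immune ones to 58.55 to 73.95 and 52.05 to 55.9, and the 10 measured striated muscle markers (of 11) to 148.9 to 153.3 and 205.8 to 251.

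Treated aggregates had less JUN beside less FOS, and more EGR1 and IER3. JUN was at -0.52 (SE 0.138, adjusted p = 0.00793), EGR1 at 0.42 (SE 0.0727, adjusted p = 2.28e-05), IER3 at 0.25 (adjusted p = 0.00477) and FOSL2 at 0.17 (adjusted p = 0.0269). Of 10, 3 rose and 2 fell, where 36.7% of all tested genes passed, 18.8% higher and 17.9% lower. FOSL2 did not pass without untreated replicate 3 (0.11, adjusted p = 0.21) or treated replicate 2 (0.12, 0.193). JUN did not pass without the libraries with MYH7 (-0.58, 0.112), and IER2 then did (0.43, 0.0179). JUNB at 0.27 and JUND at 0.43 passed in DESeq2 (adjusted p = 0.0244 and 0.0407) and limma voom but not in edgeR. In edgeR they did pass without untreated replicate 1 (0.38 and 0.58, 0.0143 and 0.0268), and without treated replicate 1 JUND (0.52, 0.0497) and FOSB (0.88, 0.0337) passed. In the primed and treated aggregates JUN was at -0.59 (SE 0.138, adjusted p = 0.00372) against untreated ones, EGR1 at 0.22 and FOSL2 at 0.35, so 2 rose and 2 fell where 35.5% of all tested genes passed, 17.6% higher and 17.9% lower. EGR1 there did not pass without untreated replicate 3 (0.14, 0.163) or primed and treated replicate 2 (0.19, 0.0773), and JUN did not without the libraries with MYH7 (-0.64, 0.0837), when IER2 did (0.41, 0.026). JUND, at 0.43, passed in DESeq2 (adjusted p = 0.0468), and without untreated replicate 1 JUND (0.58, 0.0273) and JUNB (0.32, 0.034) passed in edgeR. Both comparisons run across the split by tissue transcripts, and the treated groups were 24 h older. The 8 neuronal markers summed to 8.63 to 12.1 CPM in untreated aggregates and 33.7 to 45.6 CPM in the 2 treated groups, with STMN2, GAP43, NEFL and ELAVL4 at 0 in the untreated ones. The kidney markers summed to 1.97 to 2.91 CPM in untreated aggregates and 8.19 to 43.7 in the 2 treated groups. The melanocyte markers summed to 24.6 to 34.0 and 6.71 to 10.2 CPM, with TYR at 0 in both treated groups, and the fibroblast ones to 23.2 to 42.5 and 8.51 to 13.6. The share of mitochondrial rRNA was lower in both treated groups than in untreated aggregates, without overlap.

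Among treated aggregates, those that had also been primed differed in none of the 10 genes by edgeR, where 7.98% of all tested genes passed, 3.18% higher and 4.8% lower. By unadjusted p under 0.05 there were 4, DESeq2 called 1 and limma voom 0, and a fit of these groups alone called 4. The nearest were FOSB at -0.90 (adjusted p = 0.0544), FOSL2 at 0.18 (0.0551), EGR1 at -0.20 (0.0825) and FOS at 0.26 (0.133). FOSB passed without treated replicate 1 (-1.11, 0.0317) or primed and treated replicate 3 (-1.22, 0.0223). FOSL2 passed without treated replicate 2 (0.24, 0.0264) and without the libraries with MYH7 (0.18, 0.04). The 95% intervals were -0.36 to 0.23 for JUN and -0.36 to 0.36 for JUND.

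Primed and treated aggregates had less FOS and FOSL1 and more JUND than aggregates that were only primed. FOS was at -0.35 (SE 0.102, adjusted p = 0.00834), FOSL1 at -0.94 (SE 0.294, adjusted p = 0.0137) and JUND at 0.54 (SE 0.175, adjusted p = 0.0304). EGR1 (0.21), IER3 (0.20) and FOSL2 (0.16) were slightly higher. Of 10, 4 rose and 2 fell, where 29.8% of all tested genes passed, 14.9% higher and 14.8% lower. Each of these calls ended without some single library. FOS did so without primed replicate 2 (-0.30, adjusted p = 0.0569). FOSL1 did so without primed replicate 2 (-0.81, 0.0783) or 3 (-0.84, 0.0676) or primed and treated replicate 2 (-0.89, 0.0515). JUND did so without primed replicate 1 (0.51, 0.0793) or 2 (0.44, 0.128) or primed and treated replicate 1 (0.47, 0.105) or 3 (0.56, 0.0547). EGR1 did so without primed replicate 1 (0.14, 0.165) or primed and treated replicate 2 (0.18, 0.101). IER3 did so without primed replicate 2 (0.19, 0.0799) or 3 (0.18, 0.104) or primed and treated replicate 1 (0.17, 0.119) or 3 (0.19, 0.077), and FOSL2 without primed replicate 1 (0.09, 0.269) or any primed and treated replicate (0.13 to 0.17, 0.0613 to 0.184). JUN, at -0.30, passed without primed replicate 1 (-0.47, 0.00298). This comparison also runs across the split by tissue transcripts.

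Between the primed groups with and without growth as aggregates and a second exposure, FOS was again higher in 3D. Primed and treated aggregates exceeded primed monolayers by 1.92 in FOS (SE 0.128, adjusted p = 3.22e-15) and by 1.08 in EGR1 (SE 0.0779, adjusted p = 2.67e-14). FOSL1 was higher by 1.36, JUNB by 0.54 and FOSL2 by 0.18, whereas JUN was at -0.85 (SE 0.138, adjusted p = 5.55e-05), FOSB at -0.96 and IER3 at -0.17. Of 10, 5 rose and 3 fell, where 63.9% of all tested genes passed, 31.9% higher and 32.1% lower. FOS and EGR1 were thus higher in the aggregates compared both among the 12 libraries and among the 9. The pair among the 9 also differs by the 50 µg/ml dose, 24 h of age and matrigel. These cannot be told apart from growth form. FOSB did not pass without primed monolayer replicate 2 (-0.64, 0.112). IER3 did not pass without primed monolayer replicate 1 (-0.14, 0.122) or 2 (-0.16, 0.0827) or primed and treated replicate 2 (-0.12, 0.168), and FOSL2 did not without primed and treated replicate 1 (0.15, 0.0628).

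The response to 24 h of antibody differed between aggregates and monolayers in 5 of the 10 genes by a test of the difference itself, where 23.5% of all tested genes passed, 11.3% higher and 12.2% lower. All 5 responded lower in aggregates. For FOS the response was 0.39 in monolayers and -1.44 in aggregates, a difference of -1.83 on the log2 scale (SE 0.195, adjusted p = 1.5e-08). The difference was -1.14 for JUN (SE 0.2, adjusted p = 0.000657), -0.67 for JUNB (adjusted p = 0.00658), -0.54 for IER2 (adjusted p = 0.0391) and -0.26 for FOSL2 (adjusted p = 0.0278). EGR1 did not differ past the threshold (-0.16, 95% interval -0.39 to 0.07). The dose was 50 µg/ml in aggregates and 20 µg/ml in monolayers, and the aggregate contrast alone crosses the split by tissue transcripts. IER2 lost its call without any 1 of 8 libraries (adjusted p from 0.0791 to 0.0981) and FOSL2 without any 1 of 6 (0.0679 to 0.11), given singly in the closing section. Without the libraries with MYH7 only FOS still differed (-1.62), JUN being at -0.96 (adjusted p = 0.21) and JUNB at -0.47 (0.225).

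**Figure D3:**
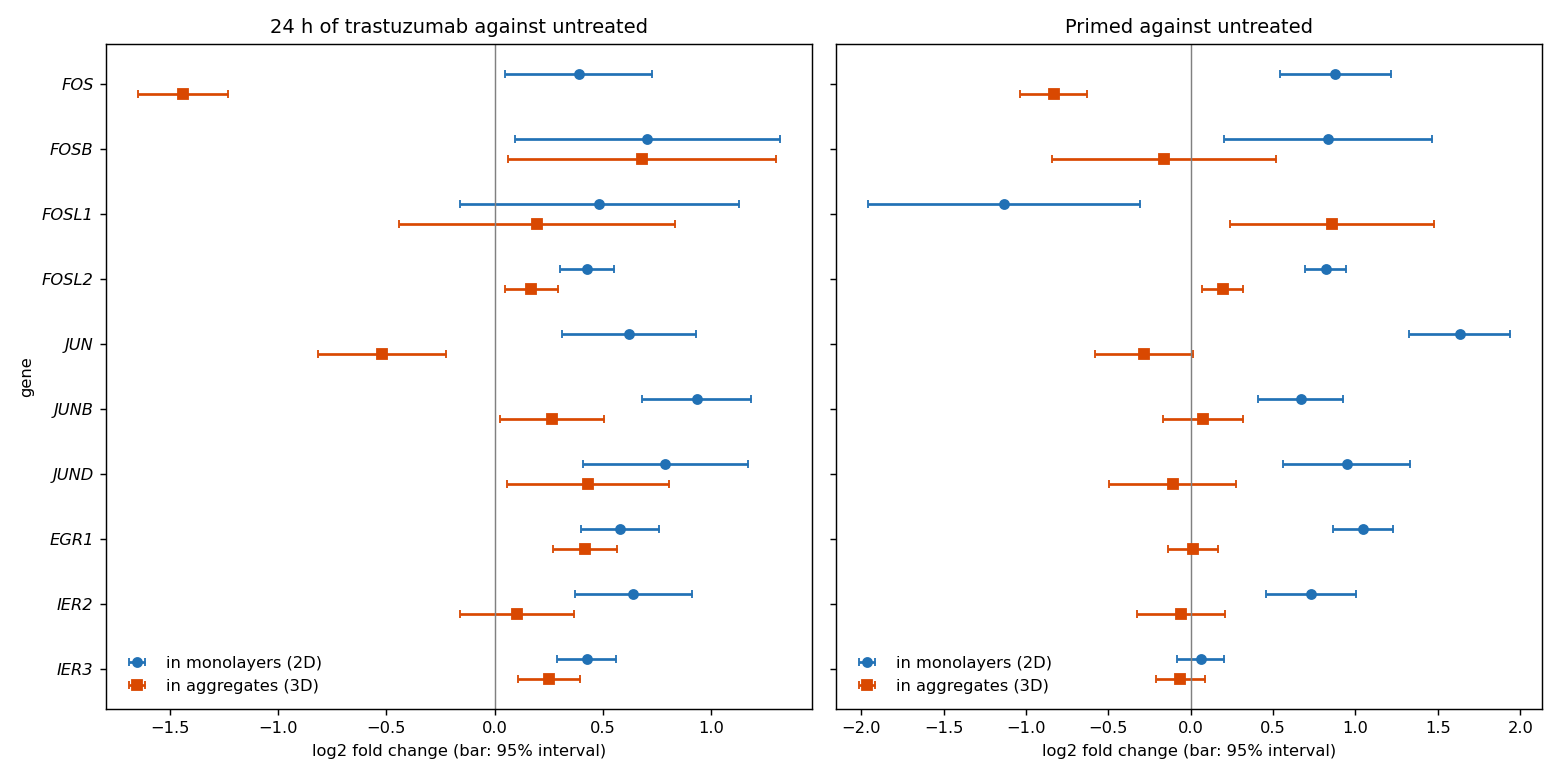
Log2 fold changes with 95% intervals for the 10 genes, in monolayers (blue circles) and aggregates (orange squares), for 24 h of antibody (left) and for priming (right). For FOS the exposure values are 0.39 and -1.44, and for JUN the priming values are 1.63 and -0.28.

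Priming had a different association in the 2 growth forms for 8 of the 10 genes, where 57% of all tested genes passed, 27.6% higher and 29.4% lower. The change with priming in aggregates minus that in monolayers was -1.92 for JUN (SE 0.199, adjusted p = 5.73e-07), -1.71 for FOS (SE 0.194, adjusted p = 3.08e-09), -1.06 for JUND (adjusted p = 0.00233) and -1.03 for EGR1 (adjusted p = 2.28e-09). It was -0.79 for IER2, -0.62 for FOSL2, -0.59 for JUNB and, in the other direction, 1.99 for FOSL1 (SE 0.506, adjusted p = 0.00107). The FOSL1 value rests in primed monolayers on 4 to 9 counts per library. FOSB, at -0.998 (adjusted p = 0.0616), passed without untreated monolayer replicate 2 (-1.18, adjusted p = 0.0432) or primed monolayer replicate 3 (-1.27, 0.0164). Without the libraries with MYH7 FOSL1 (1.83, adjusted p = 0.0516) and IER2 (-0.28, 0.22) did not pass. Only the monolayer contrast crosses the split by tissue transcripts. In that contrast only the primed cells had the 96 h incubation, whereas both aggregate groups had it. Priming and that time cannot be told apart in monolayers. For FOS the change with priming also differed between treated and untreated aggregates, at 0.26 and -0.83, by 1.09 (SE 0.144, adjusted p = 1.87e-06), and FOS was the only one of the 10, where 12.5% of all tested genes passed, 5.05% higher and 7.42% lower. FOSL1 passed there too without primed aggregate replicate 1 (-1.34), and in the fit without the libraries with MYH7 it was at -1.79 and EGR1 at -0.38. In this contrast the treated and untreated aggregates lie on opposite sides of the split by tissue transcripts, and the treated ones were 24 h older. The later exposure, the split and age cannot be told apart there.

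Per kilobase of exon, the make-up of the FOS family transcripts differed between 2D and 3D. FOS made up 6.65 ± 1.65% of the family's CPM per kilobase in untreated monolayers, 6.55 ± 0.246% after acute exposure and 7.22 ± 1.08% in primed monolayers. It made up 42.7 ± 0.992% in untreated aggregates, 26.5 ± 0.478% in primed, 19.6 ± 0.772% in treated and 20.7 ± 0.187% in primed and treated ones. FOSL2 made up most of the rest, 88.0% in untreated monolayers and 54.8% in untreated aggregates, and was the most abundant of the 4 in every group. The family's sum rose from 15.1 ± 0.139 CPM per kilobase in untreated monolayers to 38.0 ± 3.69 in untreated aggregates. These shares rest on the same counts as the tests and were not tested.

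**Figure D4:**
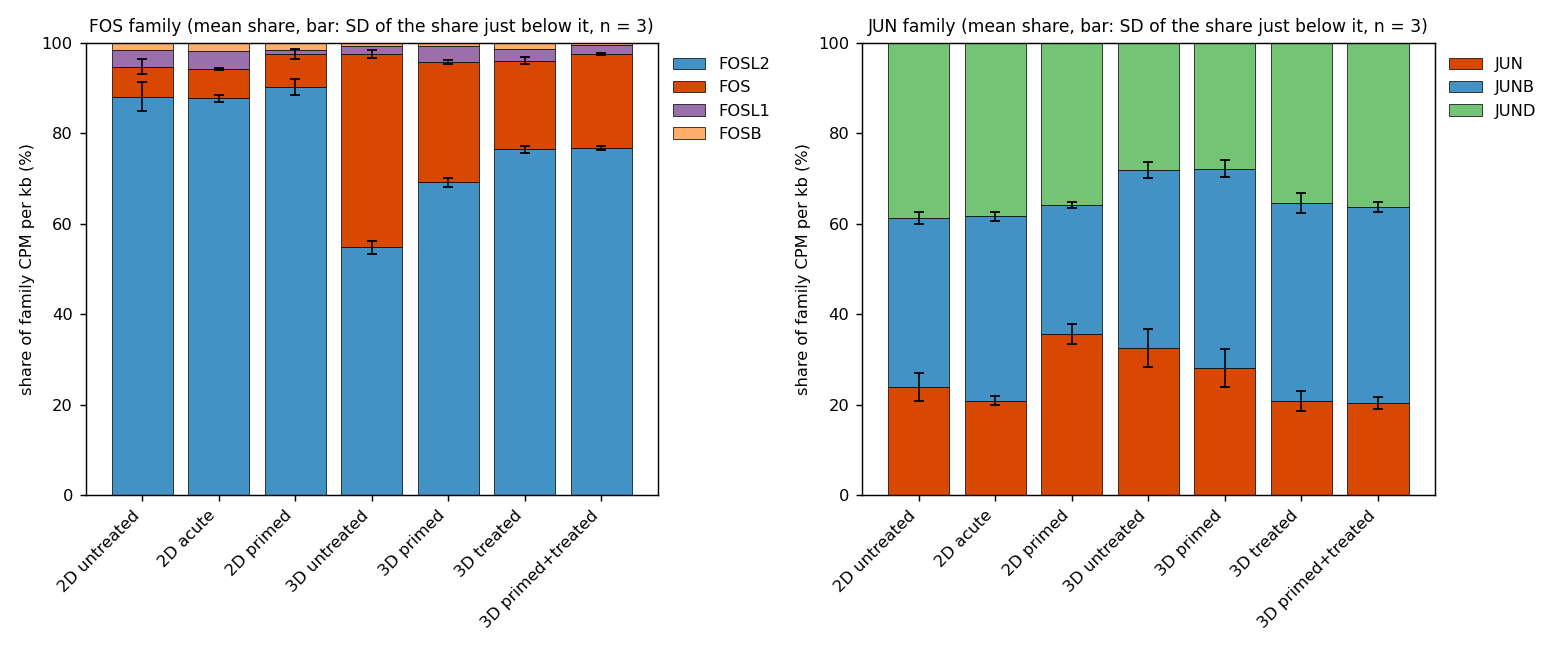
Mean share (%) of each gene in its family's CPM per kilobase of exon, for the FOS family (left) and JUN family (right) in the 7 groups, with bars for the SD of the share just below. The FOS share is at most 7.22% in the monolayer groups and 42.7% in untreated aggregates.

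The JUN family was more even. JUN made up 23.9 ± 3.07% in untreated monolayers, 20.9 ± 0.93% after acute exposure and 35.6 ± 2.18% in primed monolayers, and 32.5 ± 4.21% in untreated and 20.8 ± 2.21% in treated aggregates. JUNB made up 28.6% in primed monolayers, its lowest share, and 44.1% in primed aggregates, its highest. The sum of the family was 63.5 ± 5.69 CPM per kilobase in untreated monolayers and between 111 and 132 in the other 6 groups.

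Many other immediate early genes were higher in untreated aggregates, after acute exposure and in primed monolayers. Of 46 listed, 44 were tested. In untreated aggregates against monolayers 30 rose and 9 fell, 68.2% and 20.5% against 32.9% and 31.1% of all tested genes (median 0.55 against 0.01). ATF3, a stress-induced partner of JUN, was at 56.2 against 10.3 CPM (2.45, adjusted p = 1.13e-19), MYC at 276 against 101.4 CPM (1.45, adjusted p = 1.28e-21) and ZFP36L1, which promotes decay of AU-rich messenger RNAs, at 464 against 164 CPM (1.503, adjusted p = 3.18e-22). After acute exposure 20 rose and 3 fell, 45.5% and 6.82% against 11.3% and 8.91% of all tested genes (median 0.25), with the small MAF gene MAFF at 77.1 against 30.6 CPM (1.33, adjusted p = 1.78e-10) and TRIB1 at 181 against 96.2 CPM (0.91, adjusted p = 3.82e-14). In primed monolayers 24 rose and 10 fell, 54.5% and 22.7% against 33.7% and 31.6% (median 0.43). In primed aggregates 6 rose and 10 fell, 13.6% and 22.7% against 11.5% and 9.66% (median -0.10). In treated aggregates 16 rose and 12 fell, 36.4% and 27.3% against 18.8% and 17.9% (median 0.01). ATF3 was lower in both, at -0.38 (adjusted p = 0.00236) and -0.57 (adjusted p = 5.15e-06). These counts were not remade without the libraries with MYH7, and those of primed monolayers and treated aggregates cross the split by tissue transcripts.

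Genes upstream were called about as often as all tested genes in untreated aggregates. Of 27 RAS, RAF and MAP kinase genes, ternary complex factors and SRF cofactors, 4 rose, 13 fell and 10 did not pass in untreated aggregates (median -0.10). That is 63% called against 64.1% of all tested genes, 14.8% higher against 32.9% and 48.1% lower against 31.1%. RPS6KA5, the chromatin kinase MSK1, was at 62.0 against 150 CPM (-1.27, adjusted p = 7.81e-18) and ELK3, a ternary complex factor, at 13.9 against 5.67 CPM (1.28, adjusted p = 4.9e-12). After acute exposure 2 rose and 1 fell, 11.1% called against 20.2%, and in treated aggregates 7 rose and 2 fell, 33.3% against 36.7%. Of 17 genes for turnover and repression of FOS and JUN products, 7 rose and 4 fell in untreated aggregates, 64.7% called against 64.1% of all tested genes, with DUSP10, a phosphatase of JNK and p38, at 14.8 against 3.85 CPM (1.94, adjusted p = 1.1e-14). Of 22 tested genes for other bZIP proteins (23 listed), 9 rose and 6 fell there, 68.2% called, which is also near the share over all genes.

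Genes described as AP-1 targets were tested for 27 of 35 listed. In untreated aggregates 13 rose and 2 fell, 48.1% and 7.41% against 32.9% and 31.1% of all tested genes (median 0.41), with the angiogenic factor VEGFA at 369 against 169 CPM (1.13, adjusted p = 1.02e-15) and the ERK phosphatase gene DUSP5 at 54.9 against 11.3 CPM (2.29, adjusted p = 5.68e-12). After acute exposure 8 rose and none fell, 29.6% higher against 11.3%. In primed monolayers 16 rose and 6 fell, 59.3% and 22.2% against 33.7% and 31.6% (median 0.58). The epidermal genes IVL and KRT16 were at 14.6 and 16.0 CPM in primed monolayers against 0.158 and 0.358 in untreated ones. That comparison, and the one of treated aggregates below, cross the split by tissue transcripts, so these changes and the split cannot be told apart. In treated aggregates 7 rose and 5 fell, 25.9% and 18.5% against 18.8% and 17.9%, and VEGFA was at 231 against 369 CPM (-0.68, adjusted p = 1.22e-09). Of 14 tested EGR corepressors and described EGR1 targets (16 listed), 8 rose and 2 fell in untreated aggregates, 57.1% and 14.3% against 32.9% and 31.1%. After acute exposure 5 rose and none fell, 35.7% higher against 11.3%. Neither list was recounted without the libraries with MYH7. PTGES, a prostaglandin E synthase, was at 44.5, 143 and 129 CPM in untreated monolayers, acutely exposed monolayers and untreated aggregates.

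Heat shock and handling genes can respond to how cells are harvested, and their counts went in different directions between comparisons. Of 14, 2 rose and 7 fell in untreated aggregates, 14.3% and 50% against 32.9% and 31.1% of all tested genes (median -0.37), with HSPH1 at 134 against 342 CPM (-1.35, adjusted p = 2.8e-17). In primed aggregates none rose and 5 fell, 35.7% lower against 9.66%. After acute exposure 3 rose and 2 fell, 21.4% and 14.3% against 11.3% and 8.91%, with SOCS3 at 3.64 against 1.56 CPM (1.23, adjusted p = 1.9e-05). In primed and treated against primed aggregates 5 rose and none fell, 35.7% higher against 14.9% (median 0.18). The change with priming in treated minus that in untreated aggregates, where FOS was at 1.09, was higher for 5 and lower for none, 35.7% against 5.05% (median 0.28). Both of these last comparisons set libraries on opposite sides of the split by tissue transcripts against each other. The list also holds ATF3.

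Genes outside the 10 were searched for the profiles over the 21 libraries nearest to those of FOS, EGR1, JUN and FOSL1. With so many more genes outside than among the 10, a nearer one outside was likely from the start. Nearness was the root mean square difference of centred log2 CPM among 13016 genes, which share libraries and depth. For FOS it was smallest for PKIA, an inhibitor of protein kinase A (0.203), EGLN3, an oxygen-sensing prolyl hydroxylase induced by hypoxia (0.319), and NDRG1, also a hypoxia-induced gene (0.352), against 0.752 for EGR1, the nearest of the 10. PKIA was at 2.76 ± 0.248 CPM in untreated monolayers, 37.4 ± 5.11 in untreated aggregates and 16.0 ± 1.67 in treated ones. EGLN3 was at 10.3 ± 0.8, 227 ± 16.8 and 72.2 ± 5.43 CPM in the same groups. For EGR1 the nearest were TMEM45B (0.168), SEMA4B (0.17) and BBC3, which encodes the apoptosis inducer PUMA (0.175), against 0.507 for JUNB. For JUN they were HDAC9 (0.166), SYTL4 (0.182) and FHL2, a cofactor that binds JUN (0.186), and for FOSL1 ADAM8 (0.211), WBP1 (0.251) and COL6A1 (0.254). The likeness is a description, with no test.

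**Figure D5:**
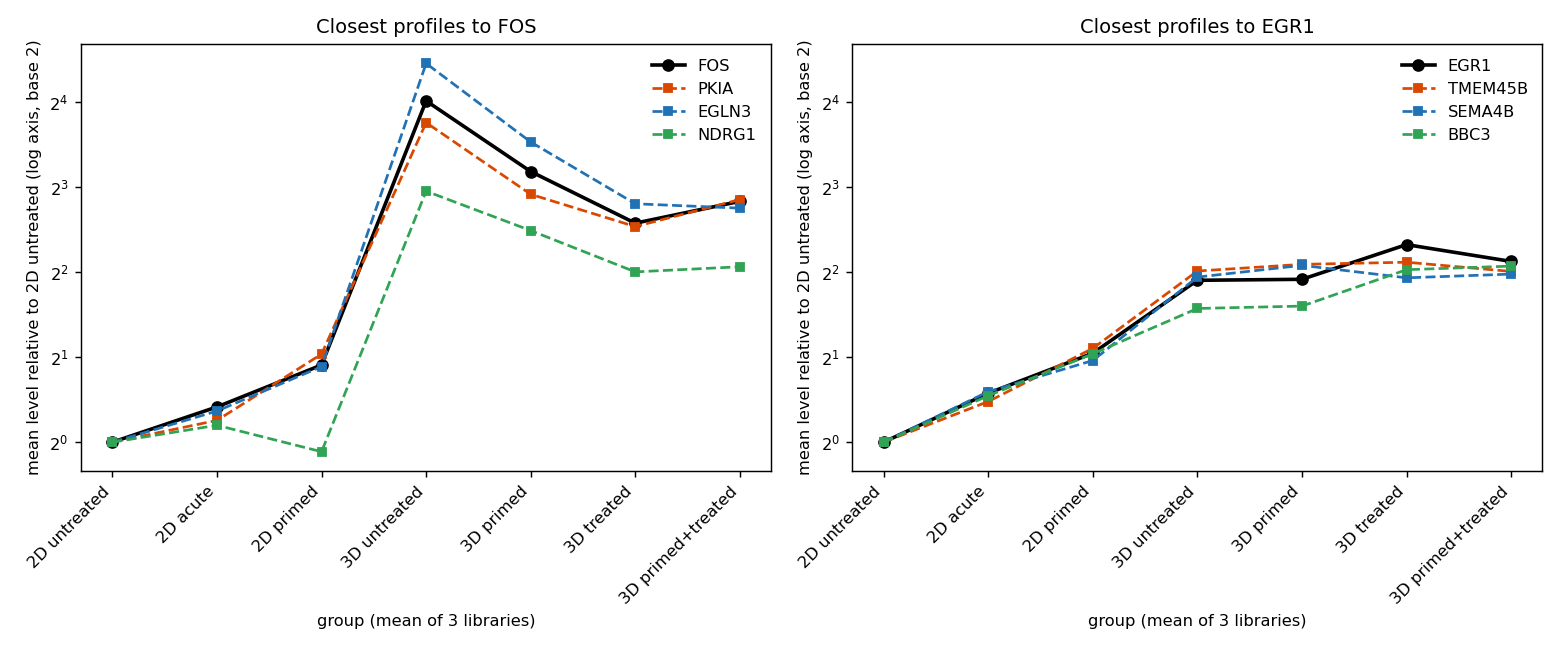
Group means relative to untreated monolayers (log axis, base 2) for FOS (left) and EGR1 (right), in black, with the 3 genes of nearest profile, dashed. PKIA follows FOS up to untreated aggregates and down to treated ones, at 2.76, 37.4 and 16.0 CPM.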

How the data were processed

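The authors deposited gene counts, made with featureCounts on hg38 per the submitters' processing notes, which also name limma and give no versions. RNA was extracted with TRIzol and sequenced from TruSeq libraries, per the labels. Columns were matched to samples by title, and those of the primed aggregates through the treatment label. Rows without a symbol (174) held 0.0715% of the counts.

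The 10 genes, the 7 supporting lists and the cell type markers were chosen with earlier results of these data known. The text names all 10, from each list up to 3 called members with the smallest p, plus ATF3 and MAFF, and the 3 nearest profiles.

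Counts were fitted in edgeR 4.0.16 (R 4.3.3) with TMM, filterByExpr, 1 mean per group for 7 groups (14 residual degrees of freedom) and two-sided robust quasi-likelihood tests, adjusted over 15969 genes and called under 0.05. SE follows from the F statistic. The filter removed 584 genes with 0.0116% of counts. Tests covered 10 pairs of groups and 3 differences between responses. The steps were tested on simulated data. Likeness used log2(CPM + 0.5) and a mean of at least 1 CPM. Lengths are GENCODE v29 exon unions. The biological coefficient of variation was 5.98%, and replicate pairs differed by 2.4 to 10.7 times counting variance. Alternatives were DESeq2 1.42.0, limma 3.58.1 voom, RLE factors, no filter, only the compared groups, a block by replicate number, each library left out in turn, and leaving out the 6 libraries with MYH7 over 1 CPM, and, for levels only, plain library size. A gene of the upstream list that the naming rule selects is not reported here.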

Additional observations from a re-analysis of the deposited data

Results flagged for a closer look

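Responses that differed between groups by a test of the difference itself (edgeR, adjusted p under 0.05) were looked at again. For 24 h of antibody, aggregates minus monolayers, the log2 differences were -1.83 for FOS, -1.14 for JUN, -0.67 for JUNB, -0.54 for IER2 and -0.26 for FOSL2. Doses and culture age differed between those arms. For IER2 the call ended without acutely exposed monolayer replicate 2 (-0.50) or 3 (-0.51), untreated monolayer replicate 1 (-0.48) or 2 (-0.51), untreated aggregate replicate 1 (-0.45) or 2 (-0.47), or treated aggregate replicate 1 (-0.51) or 3 (-0.52). For FOSL2 it ended without acutely exposed replicate 2 (-0.21), untreated monolayer replicate 2 (-0.22), untreated aggregate replicate 1 (-0.22) or 2 (-0.24), or treated aggregate replicate 1 (-0.24) or 3 (-0.23).

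For priming, aggregates minus monolayers, they were -1.71 for FOS, 1.99 for FOSL1, -0.62 for FOSL2, -1.92 for JUN, -0.59 for JUNB, -1.06 for JUND, -1.03 for EGR1 and -0.79 for IER2. In the monolayer arm of that contrast only the primed cells had the 96 h incubation. For priming in treated minus untreated aggregates the difference was 1.09 for FOS. The first 2 of these contrasts run in part across the split by tissue transcripts, which cannot be told apart from treatment. In the last contrast the treated arm lies across that split from the untreated arm and was 24 h older. These cannot be told apart from treatment either.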

How the results depend on the processing

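For the 130 values of the 10 genes, direction and side of the threshold were kept in 124 under DESeq2, 124 under limma voom, 129 under RLE factors, 129 without a filter, 119 in fits of the compared groups alone, 128 with the replicate block, 842 of 960 leaving out 1 library, and 99 without the libraries with MYH7. The cause of the changes was not tested. That last fit left 1 library in each of 3 groups. With plain library size in place of TMM, 68 of 70 group means moved by less than 1 SD. The other 2 were EGR1 in untreated monolayers (15.8 CPM) and FOSL2 in primed ones (156 CPM).

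Of the 10 genes, primed and treated against treated aggregates gave 0 calls, but 1 under DESeq2, 4 with the compared groups alone and 1 without the libraries with MYH7. Primed against untreated aggregates gave 3, and 1 with the compared groups alone. Without the libraries with MYH7, calls went from 8 to 5 for untreated aggregates against monolayers, 7 to 2 for acute exposure, 5 to 1 for the difference in exposure and 1 to 3 for priming in treated minus untreated aggregates. Genes called over the table for primed against untreated aggregates went from 3379 to 2177 with the compared groups alone and 2176 without the libraries with MYH7. For primed and treated against treated aggregates they went from 1274 to 2050 with the compared groups alone. Without the libraries with MYH7 they went from 3222 to 727 for acute exposure and 3757 to 1178 for the difference in exposure. Leaving out 1 library gave calls of 3 to 5 for the difference in exposure, 1 to 3 for primed against untreated aggregates, 2 to 4 (from 6) for primed and treated against primed, 0 to 1 for primed and treated against treated (695 to 1138 genes over the table) and 1 to 2 for priming in treated minus untreated aggregates.

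Signs changed in 59 values, 57 of them called in neither fit. Under limma voom and without a filter this was JUND for primed and treated against treated aggregates (0.0036 and 0.0011). Without the libraries with MYH7 it was FOSB (0.056), JUND (0.13) and IER2 (0.27) for primed against untreated aggregates, FOSB (0.0015) and FOSL1 (0.56) for primed and treated against untreated, FOSB (0.070), FOSL2 (0.012), EGR1 (0.19) and IER2 (0.10) for the difference in exposure, and JUND (-0.14) and IER2 (-0.30) for priming in treated minus untreated aggregates. Of these FOSL2 and IER2 in the difference in exposure had been called.

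Leaving out 1 library, values that changed sign ranged as follows. FOSB ranged from -0.11 to 0.27 for untreated aggregates against monolayers, -0.20 to 0.40 for primed against acutely exposed monolayers, -0.28 to 0.18 for the difference in exposure and -0.37 to 0.091 for primed and treated against primed aggregates. For primed against untreated aggregates the ranges were -0.031 to 0.19 for JUNB, -0.26 to 0.045 for JUND, -0.070 to 0.073 for EGR1 and -0.20 to 0.051 for IER2. Against untreated aggregates FOSL1 ranged from -0.040 to 0.39 and IER2 from -0.042 to 0.18 in treated ones, and FOSL1 from -0.32 to 0.099 and IER2 from -0.068 to 0.15 in primed and treated ones. JUND ranged from -0.19 to 0.0725 for primed and treated aggregates against primed monolayers. For primed and treated against treated aggregates the ranges were -0.16 to 0.056 for JUN, -0.10 to 0.040 for JUNB, -0.10 to 0.098 for JUND and -0.079 to 0.019 for IER2. For priming in treated minus untreated aggregates they were -0.067 to 0.0495 for FOSL2, -0.045 to 0.26 for JUND, -0.076 to 0.17 for IER2 and -0.087 to 0.0045 for IER3.

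Replicate numbers are shared across groups. Correlations of same-numbered deviations ran from -0.3 to 0.371, and no comparison had all 3 over 0.1. With 3 values per comparison this cannot exclude pairing, and the main fit did not use it. With the replicate block, 2 calls were lost, JUND for untreated aggregates against monolayers (0.47, adjusted p = 0.051) and FOSL2 for primed and treated against primed aggregates (0.16, adjusted p = 0.0503). Depth limits FOSB and FOSL1, at 4 to 65 counts per library.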
